A study of Homo sapiens with 6 samples.

Results

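The metallothioneins and the genes that sense and move zinc were examined in A375 cells, a human melanoma line, with and without overexpression of HMGB2, a chromatin protein that bends DNA. The 8 genes were chosen by name: the metallothioneins MT2A, MT1E, MT1F, MT1G, MT1M and MT1X, the zinc-sensing transcription factor MTF1 and the zinc exporter SLC30A1. All 8 were found among the 58302 genes listed in the count tables. Poly(A)-selected RNA was sequenced in 3 libraries of cells carrying an empty vector (EV) and 3 libraries of cells overexpressing HMGB2 (OE). The HMGB2 line was made by lentiviral transduction and drug selection, and reads from the vector and from the cell's own HMGB2 gene were counted together. No treatment with metal was described for either group. The study's reporting form calls the replicates technical, so p-values measure the spread between these libraries and not between separate transductions.

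Metallothioneins are small proteins rich in cysteine that bind zinc, copper and cadmium. MTF1 is activated when free zinc rises, binds metal response elements in promoters, and drives metallothionein genes together with SLC30A1, whose protein ZnT1 carries zinc out through the plasma membrane. Proteins of the ZIP family carry zinc into the cytosol, and several other ZnT proteins load it into vesicles and organelles. Metallothionein transcripts are therefore widely used as a readout of the zinc available in a cell.

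The metallothionein genes lie together on chromosome 16 (hg38), from MT2A (ENSG00000125148; 56608584 to 56609497, plus strand) through MT1E (ENSG00000169715; 56625475 to 56627112, plus strand), MT1M (56632659 to 56633981), MT1F (56657731 to 56660698) and MT1G (56666730 to 56668065, minus strand) to MT1X (56682470 to 56684196). MTF1 (37809574 to 37859592) and SLC30A1 (211571568 to 211579161) lie on the minus strand of chromosome 1. Counts are reads that fall in exons of a gene.

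The coding sequences of the family are much alike, which bears on how reads can be told apart. Those of MT2A, the most abundant member here, and MT1E, the member whose result turned on 1 library, are given from ATG to stop codon (GENCODE transcripts), with the bases at which they differ in capitals.
MT2A: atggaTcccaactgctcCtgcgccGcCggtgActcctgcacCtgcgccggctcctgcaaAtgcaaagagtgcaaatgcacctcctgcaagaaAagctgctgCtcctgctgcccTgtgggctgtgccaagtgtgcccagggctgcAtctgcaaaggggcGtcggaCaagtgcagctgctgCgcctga
MT1E: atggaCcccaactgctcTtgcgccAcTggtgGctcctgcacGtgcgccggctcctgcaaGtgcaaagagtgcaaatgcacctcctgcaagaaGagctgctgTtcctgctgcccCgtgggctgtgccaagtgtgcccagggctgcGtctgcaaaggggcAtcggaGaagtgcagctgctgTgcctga
They differ at 14 of 186 bases, an identity of 92.5%. Among the 6 metallothionein members the identity ranged from 88.7% (MT1F and MT1X) to 95.2% (MT1G and MT2A). Of the 50-base words of the canonical transcript, 11.1% also occurred in another annotated gene for MT2A, 10.3% for MT1E, 6.12% for MT1F, 14.6% for MT1M and 19.9% for MT1G. For MT1X the share was 51.0%, and a long non-coding RNA gene (ENSG00000259827) that starts at the same base on the same strand covers 18.6% of its exonic bases. That gene was listed at 0 in all 6 libraries, and a read in the shared bases is counted for neither gene, so the MT1X values are uncertain. MTF1 shared 0.900% of its words and SLC30A1 0.

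The promoters are shown because MTF1 acts through them. RefSeq promoter windows (GRCh38.p14) were matched for 4 of the 8 genes: MT2A, MT1X, MTF1 and SLC30A1. The 250 bases before the start were searched on both strands for the core of the metal response element, written as TGCACNC or TGCGCNC, and the matches are given in capitals for MT2A (chr16:56608334-56608583), MT1X (chr16:56682220-56682469) and SLC30A1 (chr1:211579162-211579411, minus strand).
MT2A: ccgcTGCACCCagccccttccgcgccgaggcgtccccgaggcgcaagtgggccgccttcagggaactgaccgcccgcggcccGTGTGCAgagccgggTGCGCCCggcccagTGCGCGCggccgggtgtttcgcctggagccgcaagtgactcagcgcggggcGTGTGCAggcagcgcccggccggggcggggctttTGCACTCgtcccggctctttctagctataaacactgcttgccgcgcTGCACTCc
MT1X: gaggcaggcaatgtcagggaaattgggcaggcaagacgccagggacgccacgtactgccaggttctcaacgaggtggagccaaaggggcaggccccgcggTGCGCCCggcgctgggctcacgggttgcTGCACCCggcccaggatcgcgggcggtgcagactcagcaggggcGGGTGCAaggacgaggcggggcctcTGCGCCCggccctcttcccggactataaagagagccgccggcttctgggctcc
SLC30A1: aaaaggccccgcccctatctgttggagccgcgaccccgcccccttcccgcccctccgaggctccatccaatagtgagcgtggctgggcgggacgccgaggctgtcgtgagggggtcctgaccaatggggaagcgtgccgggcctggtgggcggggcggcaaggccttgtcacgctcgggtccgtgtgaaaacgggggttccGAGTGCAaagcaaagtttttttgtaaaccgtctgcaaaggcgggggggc
The MT2A window held 7 matches, which did not overlap each other, and 0.0313% of 35116 windows in the table held 7 or more. The MT1X window held 4, and 0.370% of windows held 4 or more. The SLC30A1 window held 1, and 24.8% of all windows held at least 1. No match lay in these letters of the MTF1 window. Outside the 8 genes, the window of MT1H held 8 matches and that of MT1B held 3. Both of those metallothionein genes were listed at 0 reads in all 6 libraries. These are matches of letters and not sites of binding.

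Reads assigned to genes numbered 45925053 to 56755212 per library, and depth did not separate the groups (exact two-sided permutation p = 0.8, where 0.1 is the smallest possible). HMGB2 had normalized counts (counts divided by DESeq2 size factors) of 7250, 7729 and 7562 in EV replicates 1, 2 and 3 and of 15095, 16848 and 14609 in OE replicates, a log2 fold change of 1.05 (SE 0.10, adjusted p = 4.4e-22 in DESeq2). S100B and MITF were present in every library, while TYR, DCT and MLANA had 0 to 11 reads per library. The pigment gene PMEL had 50 to 68 reads per library in the column used, which kept 3.37% of the sum of its stranded columns, and SOX10 was listed at 0 there although the stranded columns held its reads. EV replicate 3 stood apart from its group. On the first principal component over genes averaging at least 10 normalized counts, it lay at 2.70, between EV replicates 1 and 2 (-39.1 and -34.7) and the OE libraries (15.4 to 37.2). On the second component (23.1% of the variance) it lay at -41.2, away from all 5 other libraries (-2.14 to 19.9).

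None of the 8 genes passed the test between groups. DESeq2 gave an adjusted p to 7 of them and called 0 higher and 0 lower at an adjusted p under 0.05, where 4.94% of all 18836 genes tested were called. At an unadjusted p under 0.05 the count was also 0, and edgeR called 0 of the 5 it tested, where it called 2.81% of all genes (1.28% higher and 1.52% lower). The median log2 fold change of the 7 was 0.08, against 0.0027 over all genes tested. MT1M received no adjusted p because its mean count lay below the filter of DESeq2. The plot of the members by library shows that MT2A, MTF1 and SLC30A1 were tight in both groups, that MT1E differed widely within the EV group, and that MT1F, MT1G and MT1M rested on a few reads.

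**Figure D1:**
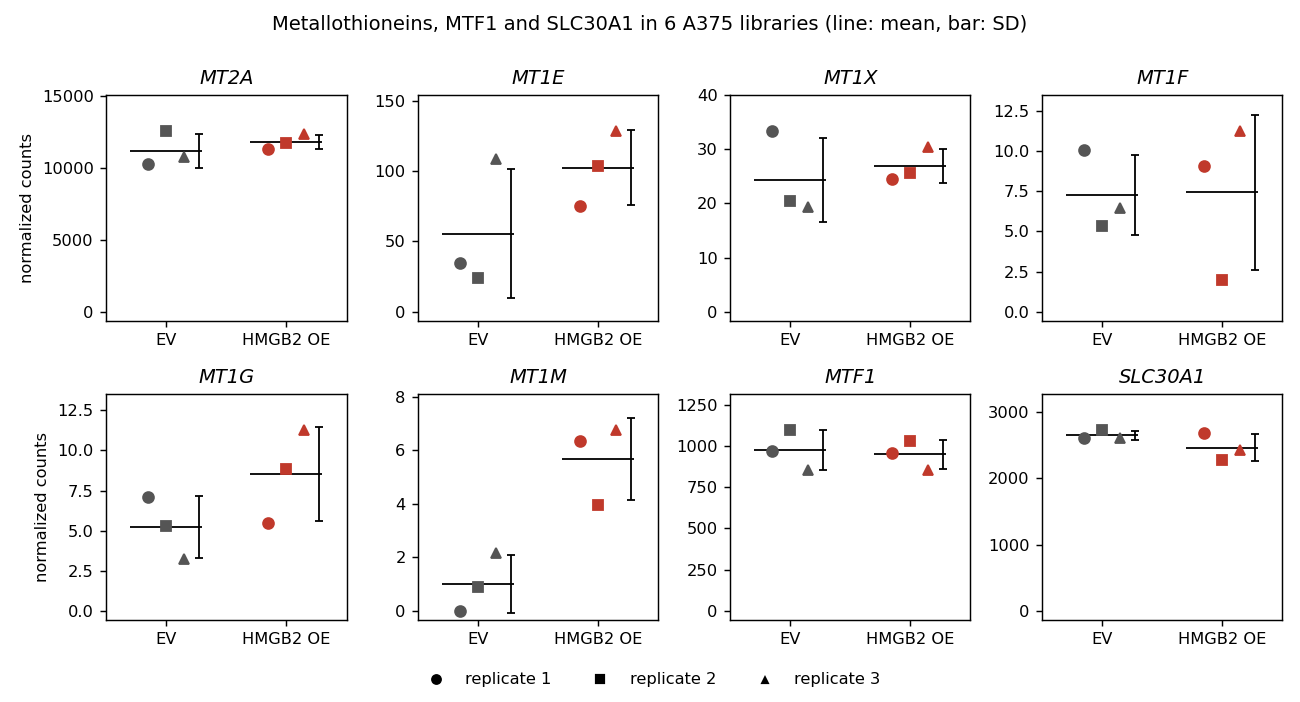
Normalized counts (y axis, separate scale per gene) of the 8 genes in the EV (grey) and HMGB2 OE (red) libraries; symbols mark the replicate number, lines the mean and bars the SD of 3 libraries. For MT1E, EV replicate 3 at 108 sits inside the OE range of 75.4 to 128, and the other EV libraries sit at 34.3 and 23.9.

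MT2A, the main metallothionein of most human tissues, was by far the most abundant of the family. Its normalized counts were 10275, 12536 and 10708 in EV replicates 1, 2 and 3 and 11325, 11686 and 12315 in OE replicates 1, 2 and 3. All OE values lay inside the range of the EV values, so the groups overlapped. The mean was 11173 ± 1200 (SD, n = 3) in EV libraries and 11775 ± 501 (SD, n = 3) in OE libraries. The log2 fold change was 0.08 (SE 0.11, adjusted p = 0.869 in DESeq2), and its 95% interval ran from -0.15 to 0.30, or from 0.903-fold to 1.23-fold.

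MT2A carried between 98.4% and 99.5% of the reads of the 11 MT1 and MT2 genes listed. Among the reads kept, the sum over those 11 genes does not depend on which near-identical member a read was given to. It was 11274 ± 1171 normalized counts (SD, n = 3) in EV libraries and 11939 ± 532 (SD, n = 3) in OE libraries, a ratio of 1.06. The groups overlapped in this sum as well, with EV replicate 2 the highest library at 12596 and EV replicate 1 the lowest at 10366. With MT2A as nearly all of it, the sum says little about the MT1 genes. Summed without MT2A, these had 90.9, 60.2 and 152 normalized counts in EV replicates 1, 2 and 3. In OE replicates 1, 2 and 3 they had 138, 156 and 199. EV replicate 3 lay above OE replicate 1, and this smaller sum was not tested.

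Per length, the order of the levels was led by MT2A. It had 27863 ± 2993 normalized counts per kilobase of transcript (SD, n = 3) with the empty vector and 29364 ± 1249 with HMGB2. SLC30A1 followed with 449 ± 11.5 and 418 ± 34.1 per kilobase. MTF1 (123 ± 15.3 and 120 ± 11.2) and MT1E (74.5 ± 61.7 and 137 ± 35.5) overlapped each other in both groups. MT1X (60.3 ± 19.3 and 66.4 ± 7.72) overlapped MT1E with the empty vector and lay below it with HMGB2. MT1F (17.1 ± 5.89 and 17.5 ± 11.4) and MT1G (12.7 ± 4.70 and 20.8 ± 7.12) could not be ordered, and MT1M stood at 2.54 ± 2.71 and 14.3 ± 3.83, below both with the empty vector and overlapping both with HMGB2. Shared words between members make these levels approximate.

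MT1E, an MT1 isoform gene, held the most reads of the family after MT2A. Its normalized counts were 34.3, 23.9 and 108 in EV replicates 1, 2 and 3 and 75.4, 103 and 128 in OE replicates 1, 2 and 3. EV replicates 1 and 2 lay below every OE library, whereas EV replicate 3 lay inside the OE range. The underlying reads numbered 34, 27 and 101 against 83, 105 and 114. With all libraries the log2 fold change was 0.89 (SE 0.47, 95% interval -0.04 to 1.82, adjusted p = 0.388 in DESeq2), and edgeR gave an adjusted p of 0.407.

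The call on MT1E turned on EV replicate 3. Without it the log2 fold change was 1.82 (SE 0.36, adjusted p = 1.97e-05 in DESeq2), a 3.52-fold rise, in a fit that called 8.31% of all genes tested higher and 9.46% lower. In replicates 1 and 2 alone it was 1.62 (SE 0.43, adjusted p = 0.00201 in DESeq2, 8.01% of genes called higher and 9.44% lower). With a term that sets the third replicates of both groups apart it was 1.12 (SE 0.33, adjusted p = 0.00736 in DESeq2, 8.71% called higher and 8.61% lower). With the replicate number as a block it was 1.12 (SE 0.38, adjusted p = 0.0269 in DESeq2, 6.09% called higher and 6.46% lower). Leaving out any of the other 5 libraries instead gave log2 fold changes of 0.52 to 1.07 and DESeq2 adjusted p of 0.469 to 0.980. The plot of fold changes under 4 choices shows intervals of MT1E that left out 0 in 3 of them, while those of the other 6 genes included 0 in all 4.

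**Figure D2:**
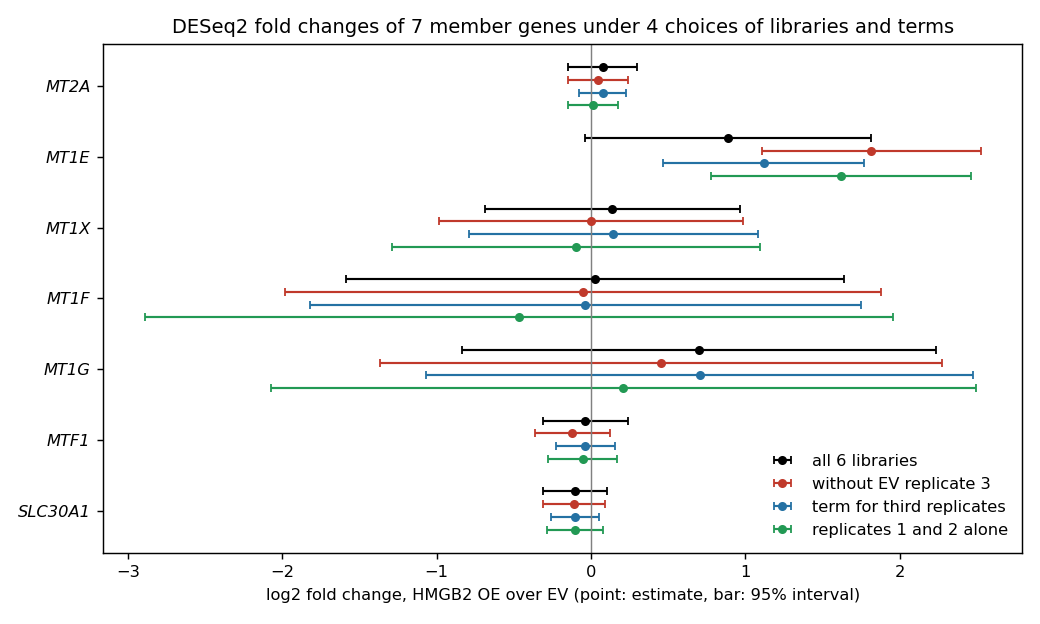
Log2 fold changes of HMGB2 OE over EV (x axis) with 95% intervals for 7 member genes, from DESeq2 with all 6 libraries (black), without EV replicate 3 (red), with a term for the third replicates (blue) and in replicates 1 and 2 alone (green). MT1E moves from 0.89 to 1.82 when EV replicate 3 is left out, while MT2A stays between 0.01 and 0.08.

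The arrangement of libraries seen in MT1E was then looked for in other genes, by a rule set after its values were seen. Of 13333 genes averaging at least 50 normalized counts, 5 had EV replicate 3 inside the range of the OE libraries and both other EV libraries at least 2-fold below the lowest OE library, a limit that MT1E passed narrowly with EV replicate 1 (2.195-fold). Chosen after their values were seen, these were MT1E, KRT5, RGS4, ALDH1A1 and GREM1. KRT5, a keratin of basal epithelial cells, had 5.05, 11.5 and 279 normalized counts in EV replicates 1, 2 and 3 and 250, 200 and 289 in OE replicates. GREM1, a secreted antagonist of BMP ligands, had 151, 122 and 423 against 380, 356 and 542. RGS4, a regulator of G-protein signalling, had 2.02, 10.6 and 124 against 135, 85.7 and 140, and ALDH1A1, an aldehyde dehydrogenase that makes retinoic acid, had 37.4, 30.1 and 112 against 88.1, 99.5 and 120. None of the 5 was called with all libraries. In the opposite direction, with both other EV libraries at least 2-fold above the highest OE library, there were 2 genes, ANK2 and CDH17, both called lower with all libraries (DESeq2 adjusted p 0.00869 and 0.00245).

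**Figure D3:**
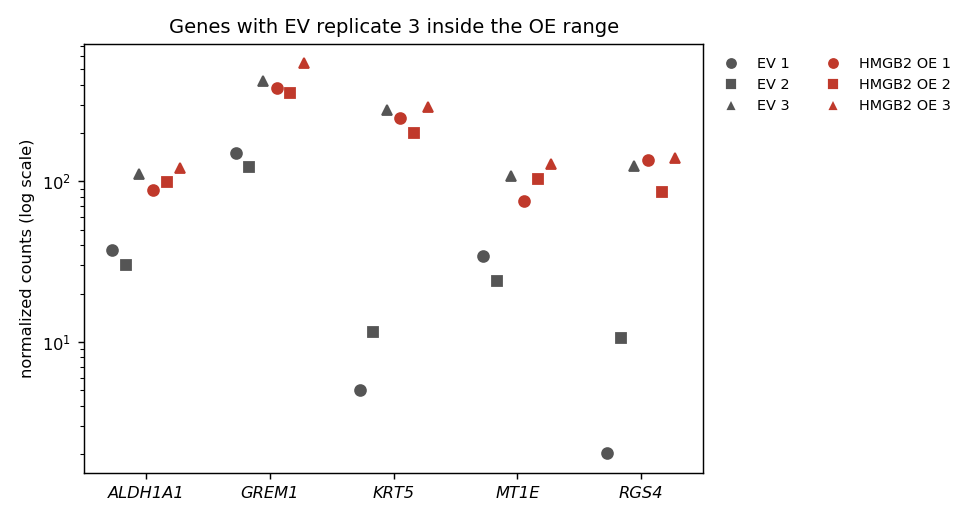
Normalized counts (y axis, log scale) of the 5 genes in which EV replicate 3 (grey triangle) lies within the OE range (red) and EV replicates 1 and 2 lie at least 2-fold below its lowest library. The distance between EV replicate 3 and the other EV libraries is largest for KRT5 and RGS4 and smaller for MT1E.

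More widely, of 2854 genes called when EV replicate 3 was left out, 1892 (66.3%) had that library nearer to the OE mean than to the mean of EV replicates 1 and 2. Selecting genes by a difference of EV replicates 1 and 2 from the OE libraries can itself raise that share. No such share was computed with another library left out. The summed markers of other cell types were also highest, within the EV group, in EV replicate 3, although single markers differed in direction. EPCAM, VWF and DCN were lowest in that library within the group, and COL1A1, COL1A2, KRT14, KRT5, LUM and PECAM1 were highest. Over 12 immune, endothelial, epithelial and fibroblast markers, the summed normalized counts were 4413, 3614 and 6109 in EV replicates 1, 2 and 3 and 5400, 5273 and 7228 in OE replicates, with COL1A1 the largest share, KRT5 among them and PTPRC at 0 in every library. Of the 9 markers tested, 0 were called by DESeq2 or by edgeR, with 2 and 1 at an unadjusted p under 0.05. KRT5 was called in the fits that set EV replicate 3 aside, as MT1E was. Its log2 fold change was 1.32 with all libraries (SE 1.46, adjusted p = 0.797 in DESeq2), 4.86 without EV replicate 3 (adjusted p = 2.9e-29), 4.74 in replicates 1 and 2 alone (4.3e-24) and 3.42 with the third-replicate term (0.0195). With the replicate block it was 3.45 (adjusted p = 0.0527 in DESeq2), which did not pass. The part of these transcripts in the MT1E result was not tested.

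MT1X had 33.3, 20.4 and 19.3 normalized counts in EV replicates 1, 2 and 3 and 24.5, 25.6 and 30.4 in OE replicates. The OE values all lay inside the EV range. Its log2 fold change was 0.14 (SE 0.42, 95% interval -0.69 to 0.97, adjusted p = 0.945 in DESeq2).

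MT1F and MT1G were near the floor of detection. MT1F had 10, 6 and 6 reads in EV replicates 1, 2 and 3 and 10, 2 and 10 in OE replicates, and MT1G had 7, 6 and 3 against 6, 9 and 10. Both genes overlapped between groups. Their log2 fold changes were 0.03 (SE 0.82) for MT1F and 0.70 (SE 0.78) for MT1G, with DESeq2 adjusted p of 0.995 and 0.800, and their 95% intervals (-1.59 to 1.64 and -0.84 to 2.23) both included a 2-fold rise, which was not detectable at this depth. In the sum of the stranded columns MT1G had further reads, and the column used kept 57.7% of that sum.

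MT1M was the single member without overlap between groups. It had 0, 1 and 2 reads in EV replicates 1, 2 and 3 and 7, 4 and 6 in OE replicates, and every OE library lay above every EV library. The ratio of 17 to 3 reads after scaling was 5.75 (95% counting interval 1.66 to 30.6), which covers counting error only. Without EV replicate 3 the EV group held 1 read and the ratio was 11.99 (1.88 to 501), and without EV replicate 1 it was 3.89 (1.12 to 20.7). DESeq2 gave an unadjusted p of 0.0513 and no adjusted p, or 0.597 without its filter. Of all genes with a read, 14.7% had no overlap between groups, so 1 of 8 members is near the background. Of its 50-base words, 14.6% also occur in other genes, among them the pseudogene MT1JP.

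MTF1, the zinc sensor, had 972, 1097 and 854 normalized counts in EV replicates 1, 2 and 3 and 959, 1033 and 856 in OE replicates. The third replicate was the lowest library of each group, and the groups overlapped. The log2 fold change was -0.04 (SE 0.14, 95% interval -0.31 to 0.24, adjusted p = 0.957 in DESeq2).

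SLC30A1, the zinc exporter that MTF1 drives, had 2609, 2726 and 2608 in EV replicates 1, 2 and 3 and 2680, 2281 and 2435 in OE replicates. OE replicates 2 and 3 were the lowest libraries, and OE replicate 1 lay inside the EV range. The log2 fold change was -0.10 (SE 0.11, 95% interval -0.31 to 0.11, adjusted p = 0.774 in DESeq2).

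The genes whose pattern over the 6 libraries was nearest to that of MT2A were STXBP4, TMEM41B, ZNF486, GOLGA5 and PLD1. Likeness was the root mean square difference of log2 values centred on the mean of each gene, over 13332 genes averaging at least 50 normalized counts. It ranged from 0.030 to 0.036 for these 5, against a median of 0.19. MT2A itself varied by 0.10 around its mean, so likeness to it is likeness to a nearly level pattern, and none of the 5 was called.

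The other genes of metal handling were read from 5 lists with 57 genes, of which 48 received an adjusted p. DESeq2 called 2 higher (2.29% of all genes tested were called higher) and 1 lower (2.64% lower). Those were SLC39A10, TFRC and SLC31A1, and edgeR called the same 3 genes. Each of the 3 had no overlap between groups, which held for 21.9% of all genes with an adjusted p. The plot of the lists shows these 3 genes as the filled points. Passing the test and not size set them apart, as MT1E (log2 fold change 0.89, SE 0.47), MT1A (0.88, SE 0.86) and MT1L (0.99, SE 1.13) lay further from 0.

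**Figure D4:**
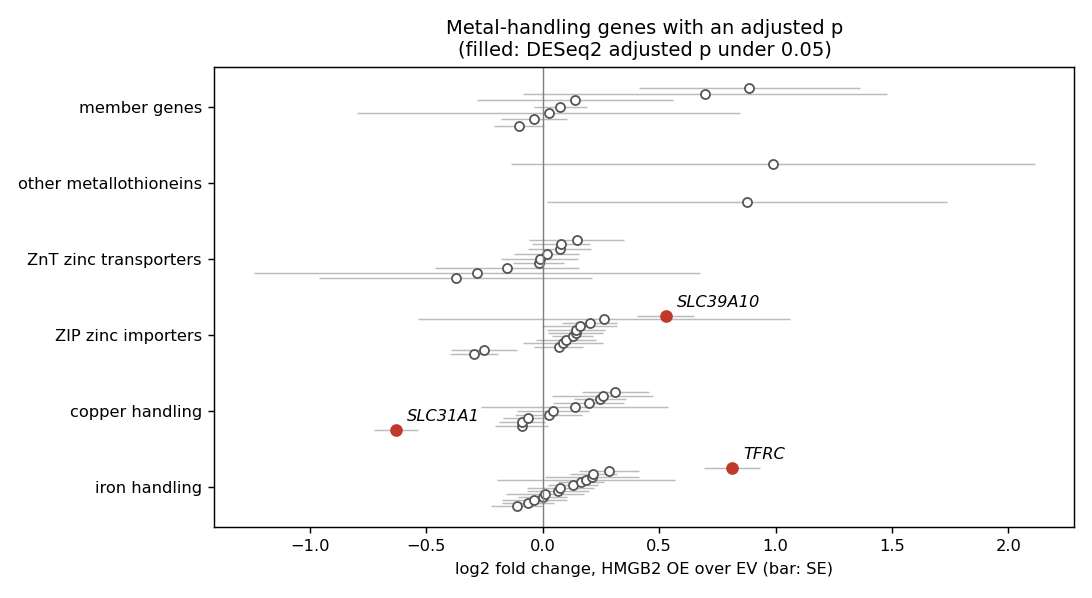
Log2 fold changes of HMGB2 OE over EV (x axis) with SE for the members and 5 lists of metal-handling genes that received an adjusted p; filled points passed the test. SLC39A10 (0.53) and TFRC (0.81) are higher and SLC31A1 (-0.63) is lower.

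SLC39A10 encodes ZIP10, a zinc importer of the plasma membrane. Its normalized counts were 807, 897 and 751 in EV replicates 1, 2 and 3 and 1146, 1259 and 1138 in OE replicates. Every OE library lay above every EV library, EV replicate 3 included. The log2 fold change was 0.53 (SE 0.12, adjusted p = 0.000918 in DESeq2), a 1.44-fold rise. The call was lost without EV replicate 1 (log2 fold change 0.52, adjusted p = 0.0564 in DESeq2) or without OE replicate 2 (0.48, adjusted p = 0.0880), with fold changes close to that of all libraries.

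Of the 14 ZIP genes, 12 were tested, 1 was called higher and 0 lower, with a median log2 fold change of 0.14. SLC39A14, an importer of zinc and iron named after its values were seen, had a log2 fold change of -0.30 (SE 0.10, adjusted p = 0.0707 in DESeq2). The ZnT list held 10 genes, SLC30A2 to SLC30A10 and TMEM163. Of these, 9 were tested and DESeq2 called 0, with 0 at an unadjusted p under 0.05, and edgeR called 0 of 8. Their median log2 fold change was -0.01. SLC30A9 and SLC30A5, the most abundant of them, had log2 fold changes of 0.08 (SE 0.12) and 0.02 (SE 0.14). Of the 7 other metallothionein genes, 4 had a read and 2 an adjusted p, MT1A and the pseudogene MT1L, and DESeq2 called 0, with 0 at an unadjusted p under 0.05 and none tested by edgeR. MT1A had 5, 2 and 5 reads in EV replicates and 8, 6 and 8 in OE replicates, and MT1L had 1, 1 and 7 against 11, 6 and 2. MT1B, MT1H and MT4 were listed at 0 in all libraries.

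SLC31A1 encodes CTR1, the high-affinity copper importer. It had 7801, 7692 and 7635 normalized counts in EV replicates 1, 2 and 3 and 5281, 5005 and 4673 in OE replicates. The EV libraries lay within a narrow range, and all OE libraries lay below it. The log2 fold change was -0.63 (SE 0.09, adjusted p = 7.96e-09 in DESeq2), or 0.647-fold. It was called under all 15 alternatives, with log2 fold changes from -0.67 to -0.58. It was the single call among 11 tested copper-handling genes, whose median log2 fold change was 0.05.

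TFRC encodes the transferrin receptor, which brings iron into the cell. It had 1885, 1797 and 1779 normalized counts in EV replicates 1, 2 and 3 and 2867, 3126 and 3609 in OE replicates. The EV libraries were again close together and all OE libraries lay above them. The log2 fold change was 0.81 (SE 0.12, adjusted p = 4.2e-09 in DESeq2), a 1.76-fold rise, and it was called under all 15 alternatives (0.70 to 0.89). It was the single call among 14 iron-handling genes tested, whose median log2 fold change was 0.10.

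**Figure D5:**
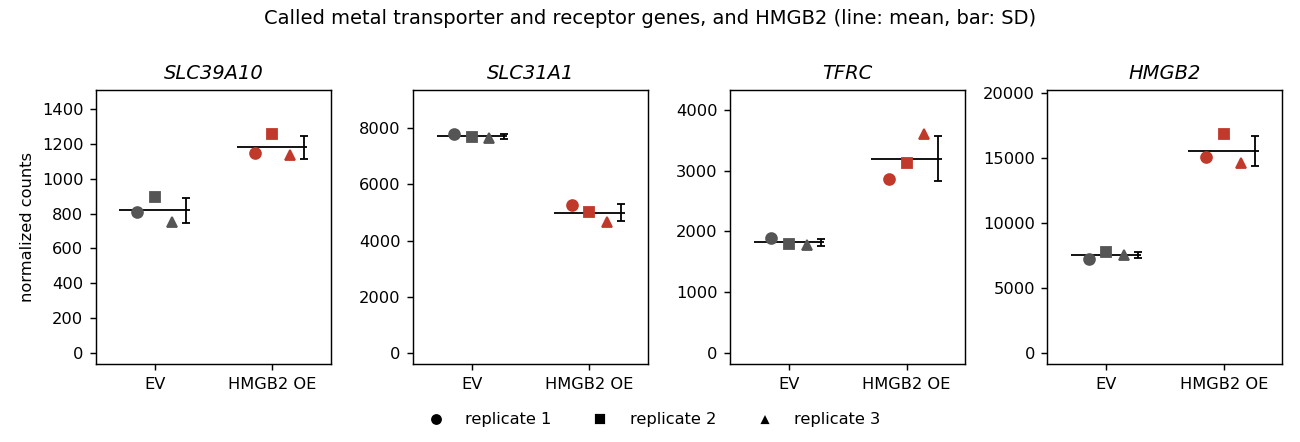
Normalized counts (y axis, separate scale per gene) of SLC39A10, SLC31A1, TFRC and HMGB2 in EV (grey) and HMGB2 OE (red) libraries; lines mark the mean and bars the SD of 3 libraries. EV replicate 3 (grey triangle) lies with its own group for all 4 genes. SLC39A10, SLC31A1 and TFRC are shown because they passed the test with that library included, which favours this placement.

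Without EV replicate 3 more of these genes passed the test. DESeq2 then called 10 of 44 tested, 8 higher and 2 lower, in a fit that called 17.8% of all genes. Beside SLC39A10, TFRC and SLC31A1 these were FTL (log2 fold change 0.39 in that fit), COX17 (0.43), SOD1 (0.34), IREB2 (0.26), SLC39A9 (0.28) and SLC39A1 (0.24), all higher, and SLC39A14 (-0.22), lower, chosen after their values were seen. FTL encodes the ferritin light chain that stores iron, COX17 a copper chaperone of the mitochondrion, SOD1 the superoxide dismutase that holds copper and zinc, and IREB2 the iron regulatory protein that controls TFRC and ferritin transcripts. For SLC39A9 the column used kept 22.3% of the sum of its stranded columns. Of the members, MT1E was called in the fit without EV replicate 3, and MT2A, MT1X, MTF1 and SLC30A1 were not. MT1F, MT1G and MT1M received no adjusted p in that fit and could not be called.

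Glucocorticoids are a known inducer of MT2A apart from metals. Of 11 genes known to respond to them, 10 were tested and DESeq2 called 0, with 1 at an unadjusted p under 0.05, and edgeR called 0 of 10, with 2 at an unadjusted p under 0.05. The median log2 fold change was -0.02. ERRFI1 and KLF9, the most abundant of the list, had log2 fold changes of 0.16 (SE 0.11) and -0.10 (SE 0.16). TSC22D3, a glucocorticoid-induced leucine zipper gene named after its values were seen, had 482, 466 and 512 normalized counts in EV replicates 1, 2 and 3 and 396, 370 and 357 in OE replicates. Every OE library lay below every EV library, with a log2 fold change of -0.38 (SE 0.13, unadjusted p = 0.0043, adjusted p = 0.0746 in DESeq2).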

How the data were processed

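Poly(A) RNA of 6 A375 libraries was sequenced, and the authors trimmed reads with Trimmomatic, aligned them to hg38 with STAR and deposited unnormalized counts of reads for each gene. Demultiplexing used bcl2fastq 2.20 according to the submitters' processing notes, and the STAR version and annotation release are not given in the sources used here. The column for either strand was used, in which reads that map to several places (2.58% to 10.6% of reads) or overlap several genes (10.7% to 11.4%) are left out, so near-identical and overlapping genes are undercounted. The 10.6% was in OE replicate 3 alone, and the next highest share was 4.89% in OE replicate 1. The 4 summary lines of each table were removed. Symbols came from GENCODE 44, which matched 57532 of 58302 IDs. IDs without a match held 0.0575% of counts.

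Groups were the empty vector and HMGB2 labels. Counts were fitted over all genes with DESeq2 1.42.0 in R 4.3.3 (Wald test, defaults, group alone, as in the study's methods). Log2 fold changes are unshrunken, and 95% intervals are normal (Wald) intervals. EdgeR 4.0.16 was run as an alternative. DESeq2 gave 18836 of the 32925 genes with any read an adjusted p. Fits were tested on simulated data. Alternatives were edgeR, TMM factors, a filter of 10 counts in 3 libraries, no independent filter, the stranded sum, the replicate block, each library left out, a term for the third replicates, replicates 1 and 2 alone, and offsets fitted on GC content and transcript length.

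The members, lists and alternatives were chosen with earlier results of these data known. The genes named were the 8 members, HMGB2, from each list the called genes or otherwise the 2 with the highest mean count, and the 5 genes nearest to MT2A. Others are named as chosen after their values were seen. Intervals on read counts cover counting error only.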

Additional observations from a re-analysis of the deposited data

How the results depend on the processing

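Direction and side of the threshold were compared under 15 alternatives, where a gene received an adjusted p. That held in 14 of them for MT1X, 10 for MT1F, 8 for MT1G and 1 for MT1M. HMGB2, SLC31A1 and TFRC were called in all 15. Members called higher went from 0 to 1, which was MT1E, under the replicate block, with the third-replicate term and with replicates 1 and 2 alone, and ranged from 0 to 1 when a library was left out. Members called lower stayed at 0 in all 15. Of 42 other metal-handling genes tested under the replicate block, 6 were called higher and 2 lower, against 6.09% and 6.46% of all genes. With the third-replicate term 7 and 2 of 43 were called, against 8.71% and 8.61% of all genes. With replicates 1 and 2 alone 8 and 2 of 43 were called, against 8.01% and 9.44%. Leaving out a library gave 1 to 8 higher and 1 to 2 lower. The most came without EV replicate 3, where 10 of 44 were called, against 17.8% of all genes.

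All genes called were 432 higher and 498 lower. They were 215 and 255 under edgeR, 886 and 940 under the replicate block, 1374 and 1359 with the third-replicate term, 1203 and 1418 with replicates 1 and 2 alone, and 671 and 751 after the GC and length correction. Leaving out a library gave 155 to 1334 higher and 208 to 1520 lower, the most without EV replicate 3. The cause was not tested.

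Signs near 0 turned for MT2A (-0.030), MT1F (-0.10) and MT1X (-0.0042) after the GC and length correction, for MT1X in replicates 1 and 2 alone (-0.095), for MT1F when a library was left out (-0.39 to 0.48) and for MTF1 likewise (-0.12 to 0.055). None of these was called. MT1F also lay below 0 under the replicate block (-0.18), with the third-replicate term (-0.037) and in replicates 1 and 2 alone (-0.47). It received no adjusted p in those 3 fits. The ratio of the summed metallothionein count moved by less than the spread of replicates. MT1M had no adjusted p with all libraries, and its ratio of reads ranged from 3.89 to 11.99 when a library was left out.

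The labels do not say what a shared replicate number marks. Over 16692 genes, the deviations of same-numbered libraries from their group means correlated at 0.091, 0.14 and 0.35 for replicates 1, 2 and 3. The value for the third replicates was the largest of all pairs. OE replicate 1 was closer to EV replicate 2 (0.10) than to EV replicate 1. Likewise, OE replicate 2 was closer to EV replicate 1 (0.21) than to EV replicate 2.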
